A study of Bos taurus with 6 samples.

Results

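Amino acid transporters were examined in the mRNA counts of intramuscular fat (IMF) from steers and bulls. The members were the rows of the gene table whose symbol begins with SLC1A, SLC3A, SLC6A, SLC7A, SLC36A, SLC38A or SLC43A and a number, which gave 55 of 25444 genes. One of them, SLC7A6OS, meets the symbol rule but is named only for its place beside SLC7A6 and encodes no carrier. The animals were Chinese Qinchuan males, sons of a single sire, weaned at 3 months, kept on the same diets and slaughtered at 24 months. Castration of the steers was an operation with local anesthesia at the age of 6 months, and bulls stayed intact. IMF was dissected from the sternomandibularis muscle, and RNA of each group was pooled into 1 library, from 6 animals according to the series design and the paper and from 3 according to the sample labels. The counts summed to 12677375 in steers and 9868415 in bulls.

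Cells take up and exchange amino acids through carriers of several unrelated families. Some use the sodium gradient to concentrate an amino acid, some trade an amino acid inside for another outside, and others release them from lysosomes. The SLC7 light chains reach the cell surface only when joined to a heavy chain of the SLC3 family, so that SLC3A2, the heavy chain also known as 4F2hc or CD98, serves several of them. In fat, amino acids feed protein synthesis, and the branched-chain ones are also a carbon source for lipid. The SLC6 family is broader and includes carriers of noradrenaline, serotonin, creatine, taurine and gamma-aminobutyric acid (GABA) besides those of amino acids.

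Of the 55 members, 40 had counts in both libraries, 6 in steers alone, 2 in bulls alone and 7 in neither. Those seen in 1 library alone had at most 7 counts. A count was present for 46 members in steers and 42 in bulls, beside 16793 and 16546 of all 25444 genes, of which 7692 had none in either. At least 10 counts over both libraries were reached by 36 members and at least 100 by 23. Together the members took 0.0869% of the counts in steers (95% Clopper-Pearson interval 0.0852 to 0.0885) and 0.0974% in bulls (0.0954 to 0.0994). SLC1A5, SLC38A10 and SLC38A2 held 47.8% of the members' counts in steers and 41.0% in bulls. A longer transcript collects more counts, so the order of genes by counts is not an order of expression. The plot of scaled counts shows this wide range with the counting error of each library.

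**Figure D1:**
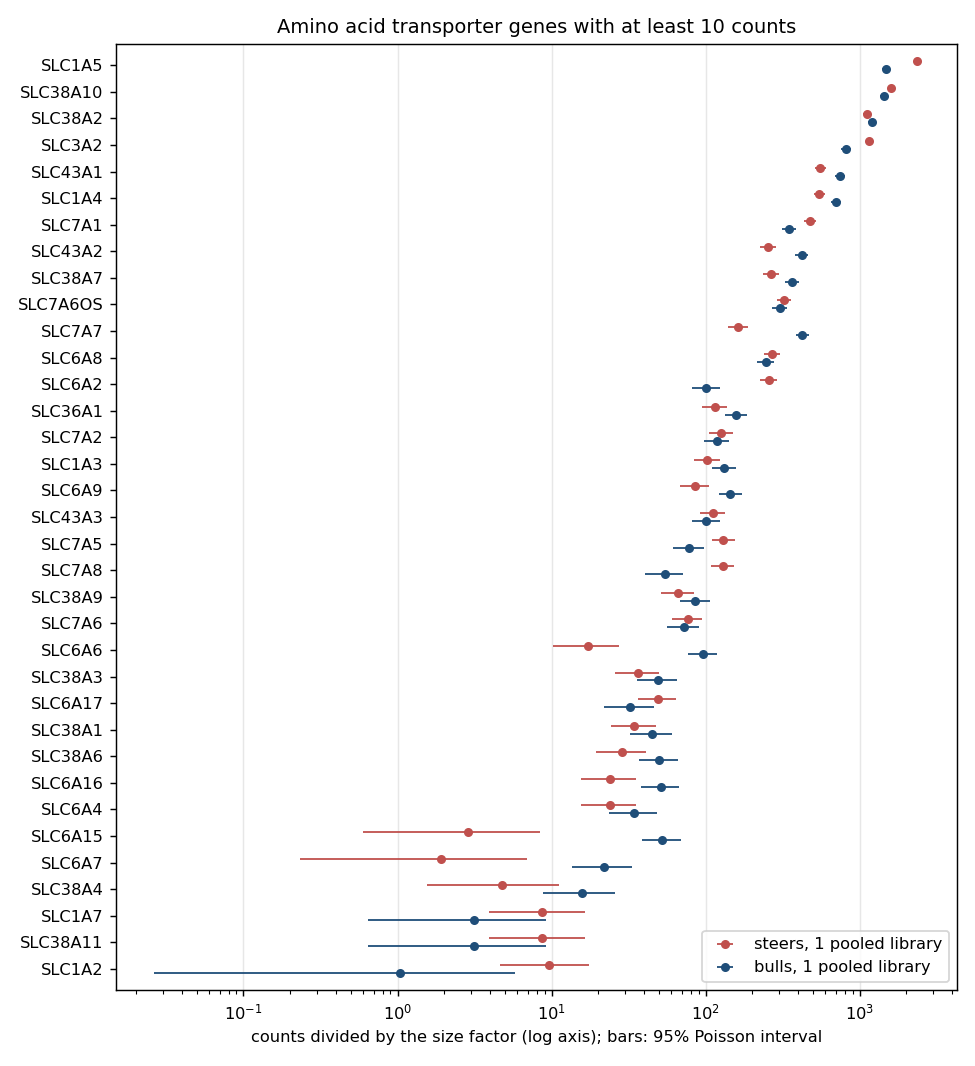
Counts divided by the library's size factor (log axis) for 35 of the 36 members with at least 10 counts, in the pooled library of steers (red) and of bulls (blue), with 95% Poisson intervals. SLC7A7, SLC6A6, SLC6A15 and SLC6A7 sit clearly lower in steers, and SLC6A2 and SLC7A8 higher, while the points of most other members lie close together.

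Between the pooled libraries, 3 members were called higher in steers, namely SLC7A8, SLC6A2 and SLC1A2, and 5 lower, namely SLC7A7, SLC6A6, SLC6A16, SLC6A15 and SLC6A7. A gene was called when its pair of counts, scaled by median-of-ratios size factors, differed by more than 2-fold and had an adjusted p under 0.05 in an exact binomial test over all 17752 genes with a count. Of the 48 members tested, this is 6.25% higher and 10.4% lower, compared with 4.37% higher and 8.13% lower among all genes tested. With 1 pooled library per group there is no replicate check, and the test compares these 2 libraries and not the conditions. All intervals cover counting error only. In a piece of tissue, fewer cells of a type and less RNA per cell cannot be told apart. The log2 ratio of scaled counts, steers over bulls, is the log2 fold change drawn in the plots. Its median was -0.02 over the 48 members tested and -0.36 over the 36 with at least 10 counts, whereas that of all genes was 0.01 with either minimum. Among those 36 members, 16 lay above 0 and 20 below. Of the 28 that were not called, 17 had an interval entirely between -1 and 1, so a change past 2-fold lay outside their counting error, and 11 had an interval that reached past it.

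**Figure D2:**
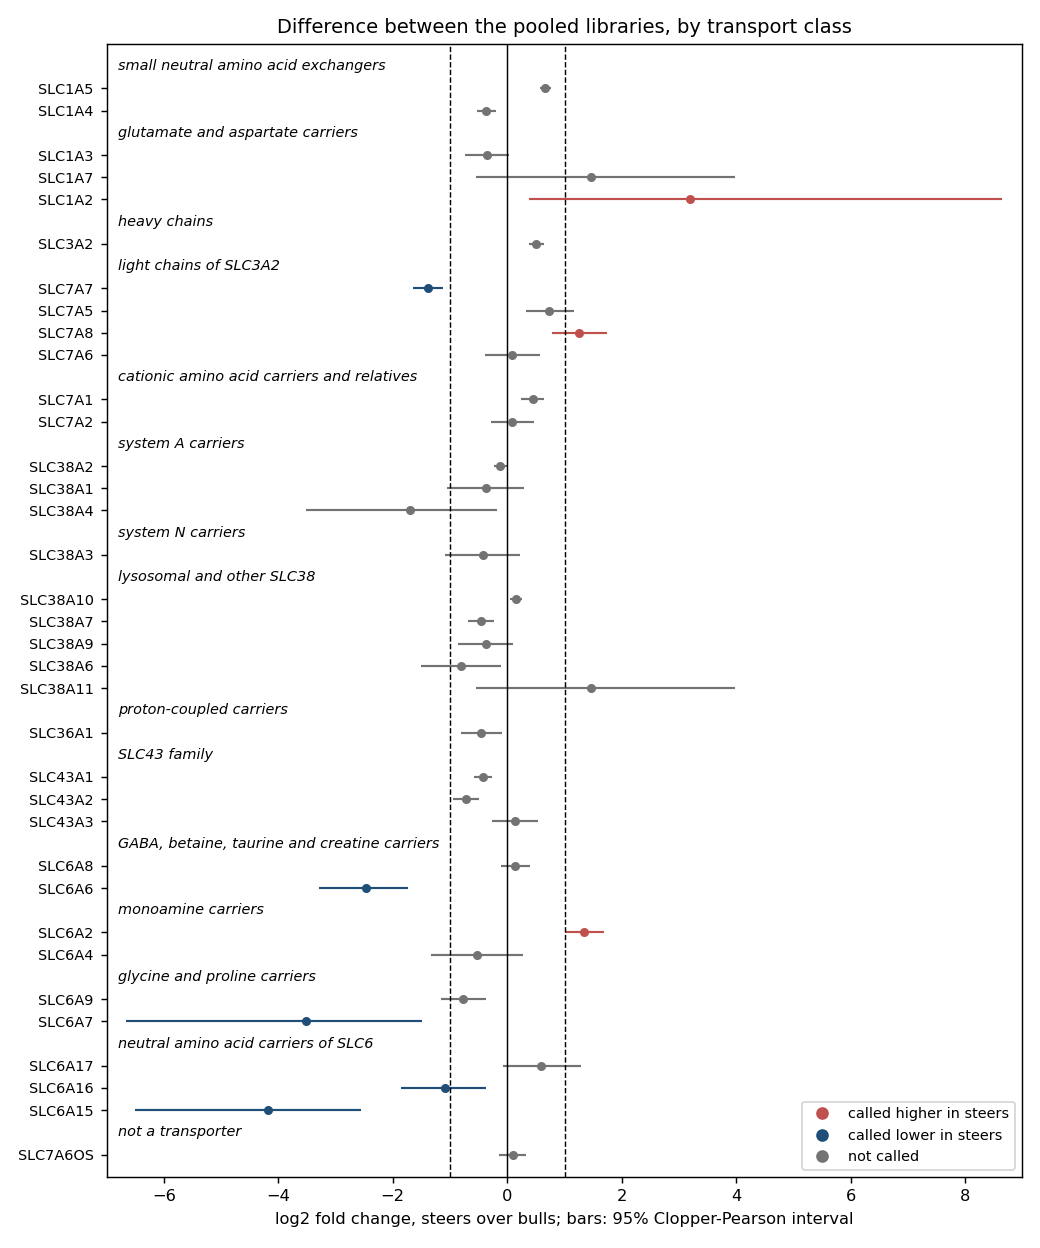
Log2 fold change of steers over bulls with 95% Clopper-Pearson intervals for 35 of the 36 members with at least 10 counts, grouped by transport class; dashed lines mark 2-fold. Of the 8 called genes, 5 lie in the SLC6 classes, and the light chains of SLC3A2 hold one call on each side.

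Among the heavy and light chains, one light chain fell and another rose, while the heavy chain stayed within 2-fold. SLC3A2 had 1207 counts in steers against 783 in bulls, a log2 ratio of 0.50 (95% interval 0.37 to 0.63), which was under the fold threshold. SLC7A7 encodes y+LAT1, the light chain that exports cationic amino acids in exchange for neutral ones and sodium. It had 170 counts in steers against 407 in bulls and fell by 1.38 on the log2 scale (interval -1.65 to -1.12, adjusted p = 1.01e-26 in the exact binomial test). Myeloid markers summed to 2643 CPM in steers against 8677 in bulls (CPM being counts divided by the library total in units of 1e+06), and their part in the value of SLC7A7 was not tested. SLC7A8, which encodes LAT2, an exchanger of neutral amino acids, had 135 and 52 counts and rose by 1.25 (0.78 to 1.75, adjusted p = 2.28e-07 in the exact binomial test). The call of SLC7A8 was lost in edgeR's exact test with an assumed biological coefficient of variation of 0.2. In bulls there were 7.83 counts of SLC7A7 for each count of SLC7A8 (interval 5.85 to 10.7), and in steers 1.26 (0.999 to 1.59). The gene pair lies on the same chromosome in the RefSeq table of the ARS-UCD2.0 assembly, with 16 protein-coding genes between them. SLC7A5, the LAT1 light chain for large neutral amino acids such as leucine, had 136 counts in steers against 75 in bulls, and its log2 ratio of 0.74 (0.32 to 1.16) was not called. For each count of SLC3A2, those of SLC7A5 were 0.113 in steers and 0.0958 in bulls, with overlapping intervals (0.0937 to 0.135 and 0.0746 to 0.122). The corresponding values of SLC7A7 were 0.141 (0.119 to 0.165) and 0.520 (0.460 to 0.587), which do not overlap. Those of SLC7A8 were 0.112 in steers (0.0929 to 0.134) and 0.0664 in bulls (0.0492 to 0.0880), also without overlap. For SLC7A6 the 2 intervals overlapped (0.052 to 0.083 in steers and 0.068 to 0.113 in bulls). SLC7A6, the y+LAT2 light chain, had 80 and 69 counts and a log2 ratio of 0.09 (-0.39 to 0.58), with a direction that turned under scaling by total counts. Its span overlaps that of SLC7A6OS in RefSeq, and the use of strand in counting is not given in the sources used here, so reads of that stretch may belong to either gene. SLC7A6OS had 337 and 290 counts, at 0.09 (-0.14 to 0.33), and turned sign in the same way. SLC7A11, the cystine and glutamate exchanger xCT, had 3 counts in each library. The other heavy chain, SLC3A1, had 1 count in steers and 0 in bulls, and its partners SLC7A9 and SLC7A13 had no count in either.

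The 2 small neutral amino acid exchangers of the SLC1 family, both of which trade alanine, serine and cysteine, differed in opposite directions. SLC1A5 (ASCT2), known as a main route for glutamine, had 2443 counts in steers against 1416 in bulls. Its log2 ratio of 0.66 (0.57 to 0.76) was beyond counting error but short of 2-fold. SLC1A4 (ASCT1) had 571 and 676 counts and a value of -0.37 (-0.53 to -0.20). Hence there were 4.28 counts of SLC1A5 for each of SLC1A4 in steers (3.90 to 4.70) and 2.09 in bulls (1.91 to 2.30). Among the glutamate carriers, SLC1A3 (EAAT1) carried 89.3% of the counts of its class, with 107 in steers and 126 in bulls, and was not called at -0.36 (-0.74 to 0.03). SLC1A2 (EAAT2) had 10 counts in steers against 1 in bulls and was called higher, at 3.20 with a wide interval of 0.39 to 8.64 and an adjusted p of 0.0453 in the exact binomial test. Scaling by total counts ended this call. SLC1A7, with 9 and 3 counts, was at 1.46 (-0.54 to 3.98), and SLC1A1 had 4 and 1.

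Cationic amino acids such as arginine and lysine enter cells mainly through the CAT carriers of the SLC7 family. SLC7A1 (CAT1) had 495 counts in steers against 334 in bulls, a log2 ratio of 0.45 (0.24 to 0.65), and SLC7A2 (CAT2) had 132 and 114, at 0.09 (-0.28 to 0.46). Neither was called, and the sign of SLC7A2 turned with total counts. Their relatives SLC7A14 and SLC7A4 had 7 and 5 counts in steers against 0 in bulls. The lower limit of the log2 ratio of SLC7A14 from counting error was 0.41. It did not pass the exact binomial test (adjusted p = 0.0537) although another form of the two-sided p called it. SLC7A3 had no count.

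For the SLC38 family of sodium-coupled carriers of glutamine and alanine, 0 of 10 members were called, which for 10 genes is near the share of all genes given above. Below 0 lay 8 of 10, compared with 8753 of the 17752 genes tested, and 1 of the 8 rests on 1 count in each library. SLC38A2 (SNAT2), the system A carrier whose mRNA is known to rise when amino acids are scarce, had 1157 counts in steers against 1155 in bulls, which after scaling gave -0.12 (-0.24 to 0.00). SLC38A1, of the same system, had 36 and 43 counts and was at -0.38. SLC38A4 had 5 and 15, a value of -1.71 with an interval from -3.52 to -0.17, and was not called (adjusted p = 0.0646 in the exact binomial test). SLC38A10, a less well described member, had 1662 and 1371 counts and a log2 ratio of 0.16 (0.05 to 0.26) that changed sign with total counts. SLC38A7, a lysosomal glutamine carrier, was at -0.45 (-0.69 to -0.22) from 278 and 350 counts. SLC38A9, the lysosomal arginine carrier and sensor that signals to mTORC1, was at -0.37 (-0.85 to 0.11) from 69 and 82. The values were -0.80 for SLC38A6 (-1.51 to -0.11), which had 30 and 48 counts, and -0.43 for the system N carrier SLC38A3 (-1.09 to 0.22), which had 38 and 47. With total counts SLC38A4 and SLC38A6 were called lower, at -1.95 and -1.04. SLC38A11 had 9 and 3 counts, and SLC38A8 had 1 in each library.

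The lysosomal and sodium-independent carriers of the SLC36 and SLC43 families had 0 calls among 6 genes, a number too small to set against the shares of all genes (4.37% and 8.13%). SLC36A1 (PAT1), a proton-coupled carrier of small amino acids, had 120 counts in steers against 151 in bulls, at -0.45 (-0.81 to -0.10). SLC36A2 and SLC36A3 had 1 and 2 counts in steers against 0 in bulls. SLC43A1 (LAT3) and SLC43A2 (LAT4), uniporters of branched-chain and other large neutral amino acids, had 581 and 267 counts in steers against 714 and 404 in bulls. Their log2 ratios were -0.42 (-0.58 to -0.26) and -0.72 (-0.95 to -0.49), both below 0 and short of 2-fold. SLC43A3, which carries purine nucleobases in place of amino acids, was at 0.14 (-0.27 to 0.54) from 116 and 97 counts, and its sign turned with total counts.

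Of the 8 calls, 5 were in the SLC6 family of sodium- and chloride-dependent carriers. Among its 14 members with a count, 1 was called higher and 4 lower (7.14% and 28.6%), beside 4.37% and 8.13% of all genes tested. SLC6A6 (TauT), the taurine carrier, had 18 counts in steers against 92 in bulls and fell by 2.48 on the log2 scale (-3.29 to -1.74, adjusted p = 1.66e-13 in the exact binomial test). SLC6A15 (B0AT2), a carrier of branched-chain amino acids and proline best known from neurons, had 3 counts in steers against 50 in bulls, a log2 ratio of -4.18 (-6.51 to -2.55). SLC6A7, the proline carrier, also known from brain, had 2 and 21 counts and fell by 3.51 (-6.65 to -1.48). SLC6A16, for which no substrate is established, had 25 and 49 counts and lay just past the threshold at -1.09 (-1.85 to -0.37). With a prior of 5 counts its value was -0.97, so its call was lost. SLC6A9 (GLYT1), the glycine carrier, had 89 and 139 counts and lay just inside the threshold at -0.77 (-1.17 to -0.37), the nearest of the members past the p threshold. With total counts SLC6A9 was at -1.005 and called lower. The opposite direction was found for SLC6A2, the noradrenaline carrier of sympathetic nerves, which had 268 counts in steers against 97 in bulls and rose by 1.34 (1.00 to 1.69, adjusted p = 1.56e-15 in the exact binomial test). The interval that the study's gene table lists for SLC6A2 is much shorter than the gene's span in RefSeq, and whether these reads represent the whole gene was not tested. Of nerve and Schwann cell markers, MBP, a myelin protein, rose by 1.22, and their part in the value of SLC6A2 was not tested. TH, the first enzyme of noradrenaline synthesis, had 28 and 42 counts, and DBH, a later enzyme of it, had 0 in both. SLC6A8, the creatine carrier, had 282 and 235 counts and was at 0.14 (-0.11 to 0.40), with a sign that turned with total counts. SLC6A17 had 51 and 31 counts and SLC6A4, the serotonin carrier, had 25 and 33, and neither was called. SLC6A20 had 3 and 2 counts. SLC6A3 had 3 counts in steers alone, and SLC6A12 and SLC6A19 had 3 and 2 in bulls alone. SLC6A5, SLC6A11, SLC6A13 and SLC6A18 were at 0 in both. The 3 counts set in place of a 0 correspond to 0.237 CPM in steers and 0.304 in bulls, so a 0 does not exclude a level of that order.

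Counts were also summed over each transport class. The small neutral amino acid exchangers had 238 CPM in steers and 212 in bulls, and the heavy chains 95.3 and 79.3. The light chains of SLC3A2 had 41.3 and 61.4 CPM, SLC7A7 holding 51.1% of the counts of that class. The SLC43 family had 76.0 and 123. After median-of-ratios scaling, the summed log2 ratio was 0.40 for the small neutral exchangers (0.32 to 0.49), 0.50 for the heavy chains (0.37 to 0.63), -0.33 for the light chains of SLC3A2 (-0.50 to -0.16) and -0.46 for the SLC43 family (-0.58 to -0.33). These 4 classes kept their sign with total counts, at 0.17, 0.26, -0.57 and -0.70. The monoamine carriers were at 1.06 (0.76 to 1.37), and at 0.83 with total counts, with SLC6A2 holding 85.7% of the counts. On the other side were the glycine and proline carriers, at -0.94 (-1.32 to -0.56), and the neutral amino acid carriers of the SLC6 family, at -0.83 (-1.25 to -0.42), which total counts put at -1.18 and -1.07. The cationic carriers were at 0.39 (0.21 to 0.57) and the proton-coupled ones at -0.42 (-0.77 to -0.07), and total counts moved them to 0.15 and -0.66. Lysosomal and other SLC38 carriers were at 0.02 (-0.07 to 0.11), and at -0.22 with total counts. Over all 55 members the sum was at 0.07 (0.03 to 0.11), and at -0.17 with total counts, so that its sign depended on the scaling.

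**Figure D3:**
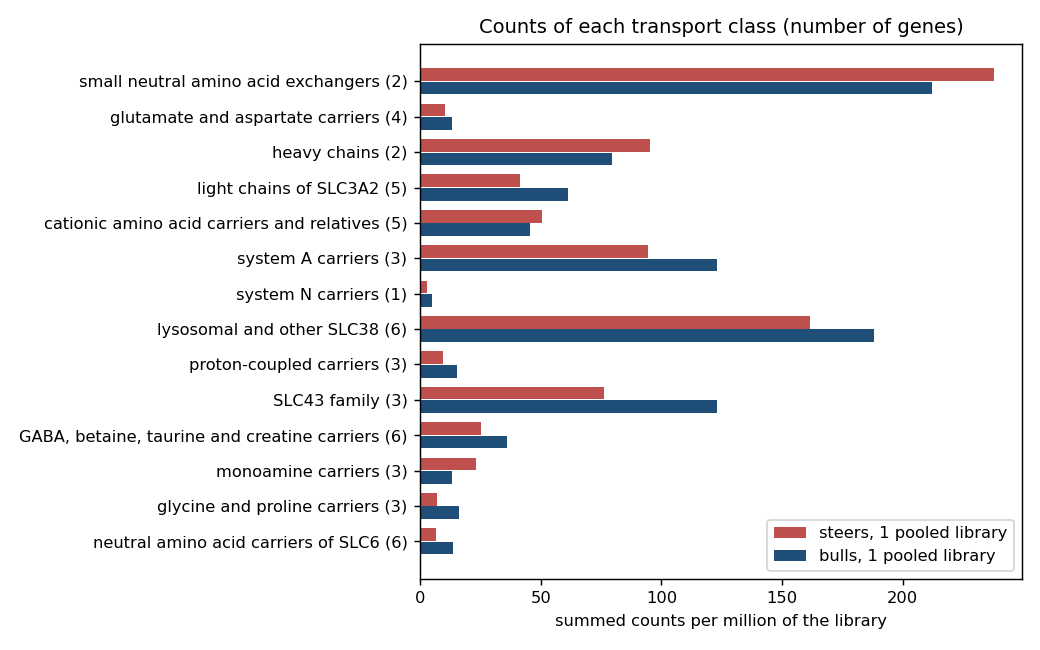
Summed CPM of each transport class (number of genes in parentheses) in the pooled library of steers (red) and of bulls (blue). The exchangers and heavy chains are higher in steers, at 238 and 95.3, and the SLC43 family is higher in bulls, at 123.

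Other genes of amino acid handling were taken from lists written from general knowledge, and their calls are to be read beside the 4.37% of all genes called higher and the 8.13% called lower. Among carriers outside the 7 families, SLC15A3, a lysosomal carrier of histidine and peptides, had 110 counts in steers against 503 in bulls and fell by 2.32 (-2.63 to -2.02). It was the single call among 6 genes with a count. SLC15A4, a close relative of it, was at -0.03 (-0.24 to 0.18) from 391 and 366 counts, and the lysosomal cystine carrier CTNS was at -0.51 (-0.76 to -0.26).

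Of the 29 genes of amino acid sensing by mTORC1, 0 passed both thresholds, and their median was 0.01. The arginine sensor CASTOR1, listed under its older symbol GATSL3, had 1543 and 902 counts and a log2 ratio of 0.65 (0.53 to 0.77). SESN1, of the leucine-sensing sestrins, had 703 and 918, at -0.51 (-0.65 to -0.36). TSC2, an inhibitor of the pathway, was at 0.12 (-0.01 to 0.25) and below 0 with total counts.

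Of 24 genes of the amino acid response, the program that ATF4 directs when amino acids are short, 2 were called higher (8.33%) and 1 lower (4.17%). Among all genes the shares were 4.37% and 8.13%, and calls this few cannot set the list apart from them. The median of the list was -0.18. ATF5 had 1822 counts in steers against 757 in bulls and rose by 1.14 (1.02 to 1.27), a call that was lost with total counts. CHAC1, an enzyme that degrades glutathione, had 22 and 2 counts and rose by 3.34 (1.31 to 6.47). ATF3, a stress-induced transcription factor, had 62 and 364 counts and fell by 2.68 (-3.09 to -2.28). ATF4 itself was at -0.10 (-0.16 to -0.04) from 4781 and 4716 counts. DDIT4, an inhibitor of mTORC1, and PCK2, a mitochondrial enzyme of phosphoenolpyruvate synthesis, were at 0.88 and 0.89, short of 2-fold.

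In branched-chain amino acid catabolism, 20 of 24 genes lay above 0, compared with 8999 of all 17752, and the median was 0.37. Total counts lower each value by about 0.24, which takes BCAT1, DLD and MCEE below 0. The 1 gene called higher made up 4.17% of the list, near the 4.37% of all genes. It was ECHS1, an enoyl-CoA hydratase that fatty acid oxidation also uses, with 4384 counts in steers against 1724 in bulls and a rise of 1.22 (1.14 to 1.31). With total counts it was at 0.98 and not called. BCKDHA, a subunit of the committed dehydrogenase, and IVD, an enzyme of leucine breakdown, were at 0.50 (0.38 to 0.62) and 0.42 (0.31 to 0.53).

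For glutamine, glutamate and arginine metabolism, 3 of 20 genes were called higher (15%) and 0 lower, beside 4.37% and 8.13% of all genes, and the median was 0.32. GPT2, a mitochondrial alanine transaminase, had 445 and 115 counts and rose by 1.83 (1.53 to 2.14). PYCR1, which makes proline, had 1320 and 456 and rose by 1.41 (1.26 to 1.57), and ODC1, which makes putrescine from ornithine, rose by 1.39 (1.07 to 1.72) from 108 to 308. GLUL, glutamine synthetase, had 12261 and 8729 counts and was at 0.37 (0.33 to 0.41). GLUD1 and OAT were at 0.26 and 0.32.

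The 9 genes of glutathione synthesis and turnover had a median of -0.04, with 1 called higher and 3 lower. GSS, glutathione synthetase, had 528 counts in steers against 114 in bulls and rose by 2.09 (1.80 to 2.39). GCLC, the catalytic subunit of the enzyme before it, had 68 and 137 and fell by 1.13 (-1.57 to -0.70). GGT5 and GGCT, which break down glutathione and its products, lay at -1.87 (-2.74 to -1.07) and -2.71 (-4.43 to -1.33), both called lower. OPLAH and GSR were at 0.35 and -0.04.

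Markers of several cell types differed between the libraries as well. Calls in each of these lists are to be read beside the 4.37% of all genes called higher and the 8.13% called lower. Of 12 myeloid markers, 10 were called lower in steers and 0 higher, with a median of -1.75. CD74 had the most counts, 12658 in steers against 41520 in bulls. None of the 12 was at 0. SLC7A7 and SLC15A3, both known from macrophages, fell in the same direction, and the part of myeloid cells in their fall was not tested. T lymphocyte markers gave 11 calls lower of 12, with 15.1 CPM in steers and 118 in bulls, CD3E as the gene with the most counts, and CD3G at 0 in steers. B lymphocyte markers had 2 calls lower of 6 with a count, MS4A1 and CD79B being at 0 in both libraries, and they summed to 2.21 and 16.6 CPM.

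Skeletal muscle markers summed to 2786 CPM in steers and 5361 in bulls, with 3 of 12 called lower, 1 higher and a median of -0.66. ACTA1 had the most counts, with 13852 and 19910. SLC6A6 was lower in steers as well, and the part of muscle in this was not tested. Adipocyte markers were present in both libraries at 3518 and 4623 CPM, CAV1 having the most counts, with a median of 0.00 and 1 call in each direction, CIDEA rising from 136 to 998 counts and FABP4 falling from 7574 to 3951. Fibroblast and matrix markers were at 137400 CPM in steers compared with 82930 in bulls, with 4 of 10 called higher and a median of 0.97, COL3A1 having the most counts. Nerve and Schwann cell markers gave 2 calls higher of 7 with a count, MBP being one of them, and summed to 170.2 and 150.2 CPM, S100B having the most counts. Epithelial markers were sparse, at 27.4 and 5.47 CPM, with KRT8 having the most counts, 4 of 6 called higher, EPCAM at 0 in bulls and KRT14 at 0 in both. Erythroid markers had 37 counts in steers against 8 in bulls, with 1 of 3 called higher, HBA having 16 and 6 counts and HBB 21 and 1, ALAS2 at 0 in both and SLC4A1 at 0 in steers. Endothelial markers, with PECAM1 first by counts, had 0 of 8 called and a median of -0.24, at 809 and 990 CPM. The CPM of the marker lists divide by the library total, unlike the scaled counts behind the medians and calls. After median-of-ratios scaling the summed log2 ratio was -0.05 for endothelial, -0.155 for adipocyte and -0.705 for skeletal muscle markers. It was 0.97 for fibroblast and matrix markers and 0.42 for nerve and Schwann cell markers. The part of these cell types in the transporter values was not tested.

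**Figure D4:**
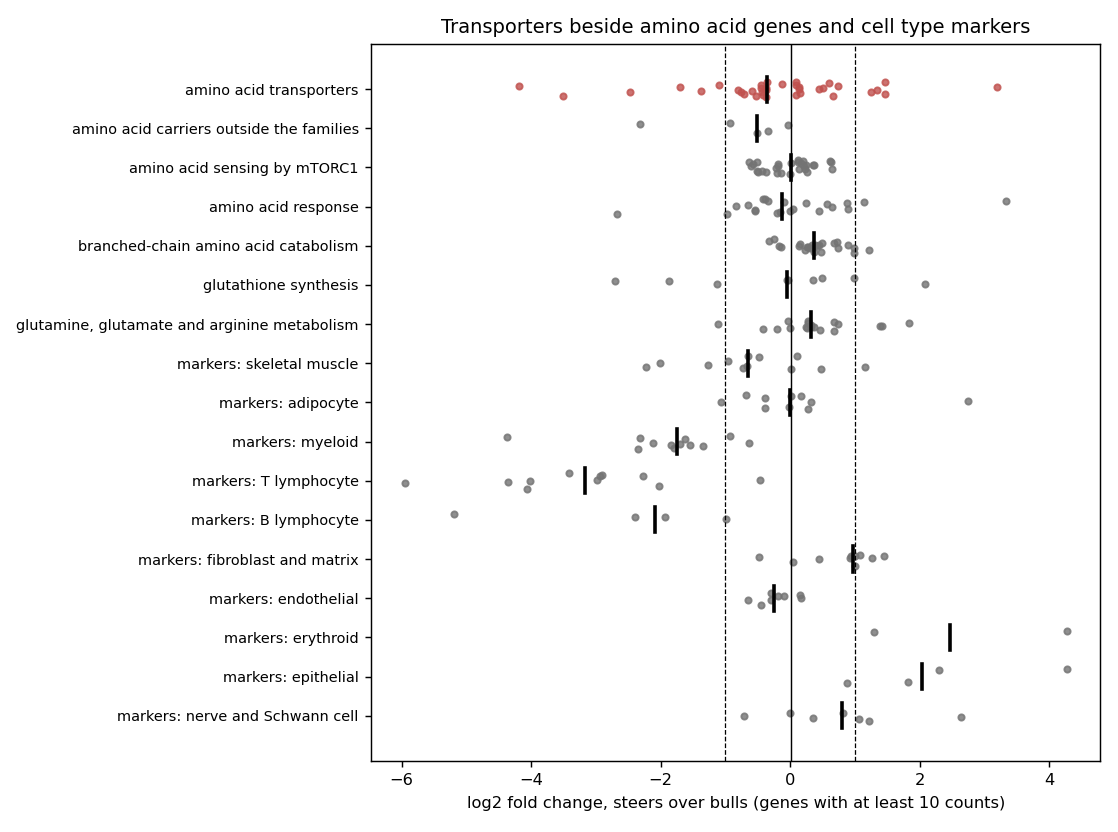
Log2 fold change of steers over bulls for genes with at least 10 counts in each list (points) with the list's median (bar); CD3G, at 0 in steers, is in its median but has no point. The transporters spread from -4.18 to 3.20 around -0.36, whereas the myeloid and T lymphocyte markers lie entirely below 0.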

How the data were processed

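The deposited mRNA values are raw counts per gene. The authors removed adaptors and low-quality reads of an Ion Proton sequencer and aligned the rest to the bovine genome (Bos 4.6.1) with MapSplice 2.1.8, and the counting program is not given in the sources used here. GEO's processing notes also list a human build. The small RNA counts of 4 further libraries were not used here.

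Size factors by the median of ratios were 1.04 (steers) and 0.959 (bulls; numpy 2.4.6, pandas 2.3.3). An exact binomial test (scipy 1.17.1) was run on every gene with a count, in which the two-sided p was the smaller tail doubled, and p-values were adjusted by the method of Benjamini and Hochberg over all of them. Calls needed both an adjusted p under 0.05 and more than 2-fold, where a count of 0 was set to 3. edgeR's quasi-likelihood test could not be fitted with 1 library per group. Log2 fold changes of genes are ratios of scaled counts, and medians of lists use a prior of 0.5 counts. The test was checked on counts simulated with counting error alone, so the check does not cover spread between pools. Alternatives were total counts, TMM and upper-quartile scaling (edgeR 4.0.16), a minimum of 10 counts, a prior of 5 counts, edgeR's exact test with an assumed biological coefficient of variation (BCV) of 0.2 or 0.4, other call rules and narrower member lists.

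Members, lists and tests were chosen with earlier results of these data known. Named are called members, the 14 with most counts, SLC3 and SLC7 members with counts, members near the threshold, and called genes and the 3 with most counts of each list of amino acid genes. Cell type markers were meant to follow the same rule, but of them mainly the gene with most counts and those at 0 are named, and the rest are given as counts. For completeness, the other members are also given, a step added after the values had been seen, except for 1 that is counted but not reported here by name. Transporters absent from the table, SLC7A10 among them, were not analysed here. RefSeq symbols (ARS-UCD2.0) matched 54 of 55 members.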

Additional observations from a re-analysis of the deposited data

How the results depend on the processing

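The calls depend on the thresholds and on the spread assumed between pools, which 1 library per group cannot measure. Those of SLC7A8, SLC1A2 and SLC6A16 were lost at an assumed BCV of 0.2. With edgeR's exact test and an assumed BCV of 0.2, 1 member (SLC6A2) was higher and 4 were lower (368 and 762 among all genes), and with 0.4 the calls were 0 higher and 0 lower, with 52 and 93 among all genes. By adjusted p alone 8 members were higher and 11 lower (3535 and 3254 among all genes), and by fold alone with at least 10 counts 5 were higher and 6 lower (979 and 1679). Total counts moved the median of all genes from 0.01 to -0.23 and that of the transporters to -0.26, gave 8 members lower in place of 5 (SLC38A4, SLC38A6 and SLC6A9 joining), and turned the sign of SLC38A10 (-0.084), SLC7A6OS (-0.14), SLC6A8 (-0.10), SLC7A2 (-0.15), SLC7A6 (-0.15), SLC43A3 (-0.10), TSC2 (-0.12), KARS (-0.17) and QARS (-0.084). Among all genes it gave 539 higher and 2006 lower in place of 776 and 1444. The members' median was -0.36 with at least 10 counts, -0.12 without the monoamine and creatine carriers and SLC43A3, and 0.092 without the SLC6 family, where 1 member was called lower, SLC7A7. TMM and upper-quartile scaling kept the sign and the call of all 70 genes compared. The other form of the two-sided p, tried after seeing the data, gave 4 members higher. No paired analysis was possible because each group has 1 mRNA library, and no library could be left out. Counts under about 10 limit SLC1A2, SLC7A14, SLC6A15 and SLC6A7.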

Other observations

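The cytosolic aminoacyl-tRNA synthetases, which load amino acids onto their tRNAs, were looked at after the values above had been seen. Of 20 genes listed, 19 were in the table, and 0 passed both thresholds of the exact binomial test, with a median log2 ratio of 0.15. Among all genes tested 4.37% were called higher and 8.13% lower, and 19 genes are too few to set 0 calls apart from those shares. KARS and QARS, which load lysine and glutamine and had the most counts of the synthetases, were at 0.07 (0.01 to 0.14) and 0.16 (0.09 to 0.22). The range ran from WARS, which loads tryptophan and is known to be induced by interferon gamma, to FARSA, a subunit of the enzyme for phenylalanine. WARS had 1435 counts in steers against 2555 in bulls, a value of -0.95 (-1.05 to -0.86), and FARSA had 701 and 402 and a value of 0.68 (0.50 to 0.86). With total counts WARS was called lower at -1.19.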
